A study of Mus musculus with 6 samples.

Results

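The probe sets described here belong to receptors that let neutrophils sense cytokines, led by the receptor for granulocyte colony-stimulating factor (G-CSF), and to inhibitors that switch those receptors off again. They were taken by identifier from a fixed list: 14 probe sets of 10 genes, out of 45101 probe sets on the array. The rule used no measured value, but the list was chosen with earlier results of these data known. Of the 14, 10 belong to 8 receptor genes (Csf3r, Csf2ra, Csf2rb, Il1r2, Il4ra, Ifngr1, Tnfrsf1a and Tnfrsf1b) and 4 to the feedback inhibitor genes Socs3 and Cish. The pairing of identifier and gene came with the list, since the deposited table holds identifiers alone.

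The cells were mouse neutrophils matured in culture from bone marrow of miR-223 null mice (3 arrays, null 1 to null 3) or wild-type mice (3 arrays, wild-type 1 to wild-type 3). Progenitors of both genotypes received G-CSF and stem cell factor in an isotope-labelling medium for 6 days, followed by 42 hours in which stem cell factor was left out, and live cells were then isolated on magnetic columns. The cells on all 6 arrays had therefore been grown with G-CSF, the ligand of Csf3r. Strain, age, the null allele and the origin of the replicates (separate animals, cultures or neither) are not given in the sources used here, so p-values measure the spread between these arrays, which may be technical. Bulk RNA was measured, so fewer cells of a type and less RNA per cell cannot be told apart. The genotype itself and the neutrophil identity were not checked here, because no other probe set could be paired with a gene.

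Cytokine receptors of this kind have no enzyme of their own. G-CSF brings Csf3r chains together and activates the JAK kinases bound to them, which phosphorylate STAT transcription factors, and these turn on genes for neutrophil growth, maturation and survival. Among the genes that STAT proteins turn on are Socs3 and Cish, whose products bind active receptors or JAK kinases and damp the signal, so their mRNA is widely used as a readout of ongoing receptor signalling as well as of its restraint. In neutrophils Socs3 is best known as the brake on Csf3r. TNF receptors work differently, through adaptor proteins that activate NF-kB and cell death pathways.

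The missing regulator is shown first, since all comparisons below turn on its absence. RefSeq lists 2 mature arms of miR-223 on chromosome X (GRCm38.p6, plus strand), the 3p arm at chrX:96242884-96242905 and the 5p arm at chrX:96242842-96242864. Capitals mark the seed, bases 2 to 8, through which a microRNA pairs with its targets. The arms do not share a seed. Whether the mRNAs of the 10 genes carry matches to either seed was not examined.
mmu-miR-223-3p: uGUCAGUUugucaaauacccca
mmu-miR-223-5p: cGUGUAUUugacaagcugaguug

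Socs3 mRNA was higher in null neutrophils, by 1.64-fold to 1.80-fold over its 3 probe sets, ahead of the other genes described here. Il4ra was higher by 1.26-fold and 1.31-fold over its 2 probe sets, and Ifngr1 by 1.13-fold. On all 6 arrays, Socs3, Il4ra and Ifngr1 passed the test only in a fit that paired arrays by replicate number. None of them passed in the unpaired fit, which was set as the main one. The G-CSF receptor Csf3r itself was 1.17-fold higher, and both probe sets of the TNF receptor Tnfrsf1b were lower, at 86.3% and 81.3% of the wild-type signal. On all 6 arrays neither gene passed in either fit. Each difference was tested with limma over 27022 probe sets, with Benjamini-Hochberg adjustment and a threshold of 0.05, and all 14 probe sets were bright enough to enter. Treated as unpaired, 0 of the 14 passed (0.189% of all probe sets did), while 5 had an unadjusted p under 0.05, against 10.7% of all probe sets. With the replicate number as a block, which compares each null array with the wild-type array of the same number, 6 of the 14 passed, against 10.0% of all probe sets. With the block and no filter, 5 of the 14 passed, against 2455 of 45037 probe sets, and Ifngr1 did not. Under a stricter filter, at the 60th percentile, all 14 were tested and the same 6 passed as in the block fit above, against 3052 of 18015 probe sets. The stricter filter was combined with the block after seeing the data. The background share under the stricter filter is larger, so brighter probe sets passed more often. All 6 were higher in null arrays, a direction in which 4.96% of all probe sets passed, and 0 of the 14 passed as lower, against 5.05%. These 6 were the 3 probe sets of Socs3, both of Il4ra and that of Ifngr1.

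The blocked calls differ in how firmly they stood. All of them assume that arrays of the same replicate number belong together, which the labels do not say. Without the replicate 2 pair, 3 of the 14 passed, all of them Socs3, against 2.24% of all probe sets. When the variance was modelled without its trend on intensity, 0 of the 14 passed with the block, against 0.707% of all probe sets. In that fit 7 of the 14 had an unadjusted p under 0.05, against 23.0% of all, and the adjusted p of the 6 lay between 0.0635 for Socs3 1416576_AT and 0.196 for Ifngr1. Null 1 and wild-type 1 deviated from the remaining 4 arrays across the whole table. Without these 2 arrays and without a block, 4 of the 14 passed, namely the 3 probe sets of Socs3 and Il4ra 1421034_A_AT, against 3.97% of all probe sets, so calls across the whole table became more frequent too. This setting was chosen after seeing the data.

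**Figure D1:**
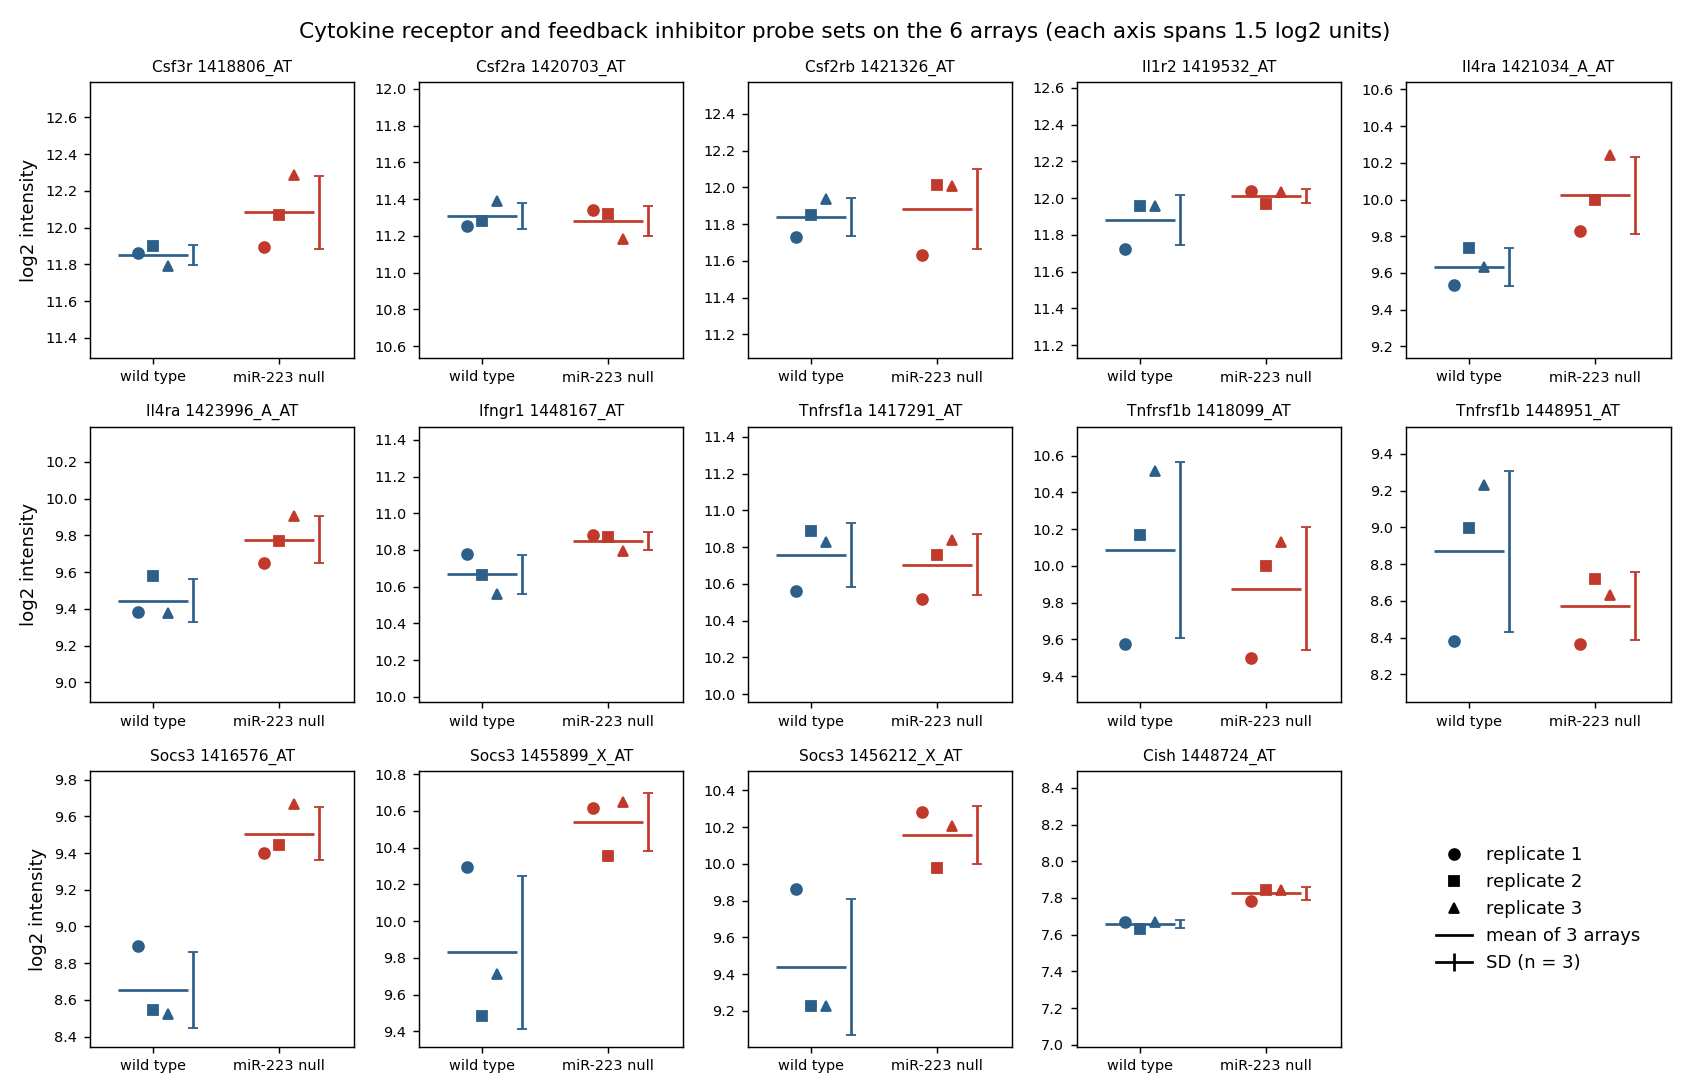
Log2 intensity (vertical axis, each panel spanning the same range) of the 14 probe sets on the 3 wild-type and 3 null arrays; marker shapes give the replicate number, horizontal lines the mean of 3 arrays and bars the SD. In all 3 Socs3 panels the null arrays lie above the wild-type arrays, with wild-type 1 the nearest to them, and in both Tnfrsf1b panels the replicate 1 arrays are the lowest of each genotype.

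Csf3r encodes the G-CSF receptor, through which the cytokine in the medium acts on granulocyte precursors and mature neutrophils. Its probe set 1418806_AT read 11.89, 12.07 and 12.29 on null 1, 2 and 3, and 11.86, 11.90 and 11.79 on wild-type 1, 2 and 3. The genotypes overlapped narrowly, since null 1 lay just below wild-type 2. The means were 12.08 ± 0.20 (SD, n = 3) and 11.85 ± 0.054 (SD, n = 3), a log2 difference of 0.23 (SE 0.10, 95% interval -0.0047 to 0.47, limma adjusted p = 0.476). The null array was higher in 3 of 3 pairs, by 0.03, 0.17 and 0.50 log2 units, so that null 3 carried most of the difference. The blocked adjusted p was 0.109, and it was 0.0328 without the replicate 1 pair, 0.218 without the replicate 2 pair and 0.243 without the replicate 3 pair. Without null 3 the unpaired difference was 0.13.

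The receptor for granulocyte-macrophage colony-stimulating factor pairs a ligand-specific alpha chain, Csf2ra, with the beta chain Csf2rb, which receptors for IL-3 and IL-5 also use. Neither chain showed a difference that passed in either fit. Csf2ra (1420703_AT) read 11.34, 11.32 and 11.18 on the null arrays and 11.26, 11.28 and 11.39 on the wild-type arrays. The genotypes overlapped, although null 3 was the lowest and wild-type 3 the highest of all 6 arrays. The difference of -0.03 log2 units had a 95% interval from -0.21 to 0.15 (limma adjusted p = 0.944, and 0.827 with the block). Csf2rb (1421326_AT) read 11.63, 12.01 and 12.01 against 11.73, 11.85 and 11.94. Null 1 was the lowest of all 6 arrays and null 2 and null 3 the highest, and the difference of 0.05 log2 units had a 95% interval from -0.22 to 0.32 (limma adjusted p = 0.937, and 0.644 with the block). On the linear scale the unadjusted intervals ran from 0.867-fold to 1.11-fold for Csf2ra and from 0.857-fold to 1.24-fold for Csf2rb.

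Il1r2 encodes the decoy receptor for interleukin-1, which binds the cytokine without signalling and is abundant on neutrophils. Its probe set 1419532_AT read 12.04, 11.97 and 12.03 on the null arrays and 11.72, 11.96 and 11.96 on the wild-type arrays. The genotypes did not overlap, yet null 2 exceeded wild-type 2 and wild-type 3 by about 0.01 log2 units, and wild-type 1 was low by itself. The log2 difference was 0.13 (SE 0.08, 95% interval -0.054 to 0.32, limma adjusted p = 0.626, and 0.206 with the block). Within pairs it was 0.32 for replicate 1, 0.01 for replicate 2 and 0.07 for replicate 3, and 0.04 once both replicate 1 arrays were left out.

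Il4ra is the chain through which both interleukin-4 and interleukin-13 signal, by way of STAT6. Its probe set 1421034_A_AT read 9.83, 10.00 and 10.24 on the null arrays and 9.53, 9.74 and 9.63 on the wild-type arrays. Its probe set 1423996_A_AT read 9.65, 9.77 and 9.91 against 9.38, 9.58 and 9.38. In both probe sets every null array lay above every wild-type array, and null 3 was the highest. The log2 differences were 0.39 (SE 0.13, 95% interval 0.10 to 0.68) and 0.33 (SE 0.11, 95% interval 0.08 to 0.58). Unpaired, the limma adjusted p was 0.331 and 0.339, and with the block both rose, with an adjusted p of 0.0219 and 0.0322. Null arrays were higher in 3 of 3 pairs for each probe set, by 0.26 to 0.61 log2 units for 1421034_A_AT and by 0.19 to 0.53 for 1423996_A_AT. Both calls were lost without the replicate 2 pair (limma adjusted p = 0.0564 and 0.0728), where the differences were 0.45 and 0.40. Of all probe sets tested, 6.28% and 9.53% differed by as much as these or more, in either direction.

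Ifngr1 is the ligand-binding chain of the interferon-gamma receptor. Its probe set 1448167_AT read 10.88, 10.87 and 10.79 on the null arrays and 10.78, 10.66 and 10.56 on the wild-type arrays. The lowest null array, null 3, lay just above the highest wild-type array, wild-type 1. The log2 difference was 0.18 (SE 0.084, 95% interval -0.01 to 0.38, limma adjusted p = 0.501), and with the block the adjusted p was 0.0496, at the edge of the threshold. The pairs differed by 0.10, 0.21 and 0.23 log2 units. The blocked call was lost without any 1 of the replicate pairs (limma adjusted p = 0.0604, 0.284 and 0.0977 without replicates 1, 2 and 3), with no filter on dim probe sets (0.0639), after median centring (0.0554) and after quantile normalization (0.0538), while the difference stayed between 0.16 and 0.22.

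The receptors for tumour necrosis factor were read by 3 probe sets. Tnfrsf1a, the receptor that carries a death domain, read 10.52, 10.75 and 10.84 on the null arrays and 10.56, 10.89 and 10.83 on the wild-type arrays (1417291_AT). These ranges lay on top of each other, with a difference of -0.06 log2 units (95% interval -0.34 to 0.23, limma adjusted p = 0.927, and 0.528 with the block). Tnfrsf1b, the receptor without a death domain, was below wild type in 3 of 3 pairs at both of its probe sets, as were 25.0% of all probe sets tested.

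For Tnfrsf1b, probe set 1418099_AT read 9.50, 10.00 and 10.13 on the null arrays and 9.57, 10.17 and 10.52 on the wild-type arrays. Probe set 1448951_AT read 8.36, 8.72 and 8.63 against 8.38, 8.998 and 9.23. The genotypes overlapped because wild-type 1 was low. Both replicate 1 arrays lay below the mean of replicates 2 and 3 of the same genotype. For 1418099_AT this was by 0.57 log2 units in null and 0.77 in wild-type arrays, and for 1448951_AT by 0.31 and 0.73. This replicate effect exceeded the genotype differences, which were -0.21 (SE 0.26, 95% interval -0.81 to 0.39) and -0.30 (SE 0.22, 95% interval -0.81 to 0.21), with a limma adjusted p of 0.843 and 0.705. With the block the adjusted p was 0.0889 and 0.117. Within pairs the differences were -0.08, -0.17 and -0.39 for 1418099_AT and -0.02, -0.28 and -0.60 for 1448951_AT. With the block and without the replicate 1 pair, 1448951_AT passed (difference -0.44, limma adjusted p = 0.0315) and 1418099_AT did not (difference -0.28, limma adjusted p = 0.0567). Without wild-type 3 the unpaired difference of 1418099_AT was 0.0032 and that of 1448951_AT was -0.12.

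**Figure D2:**
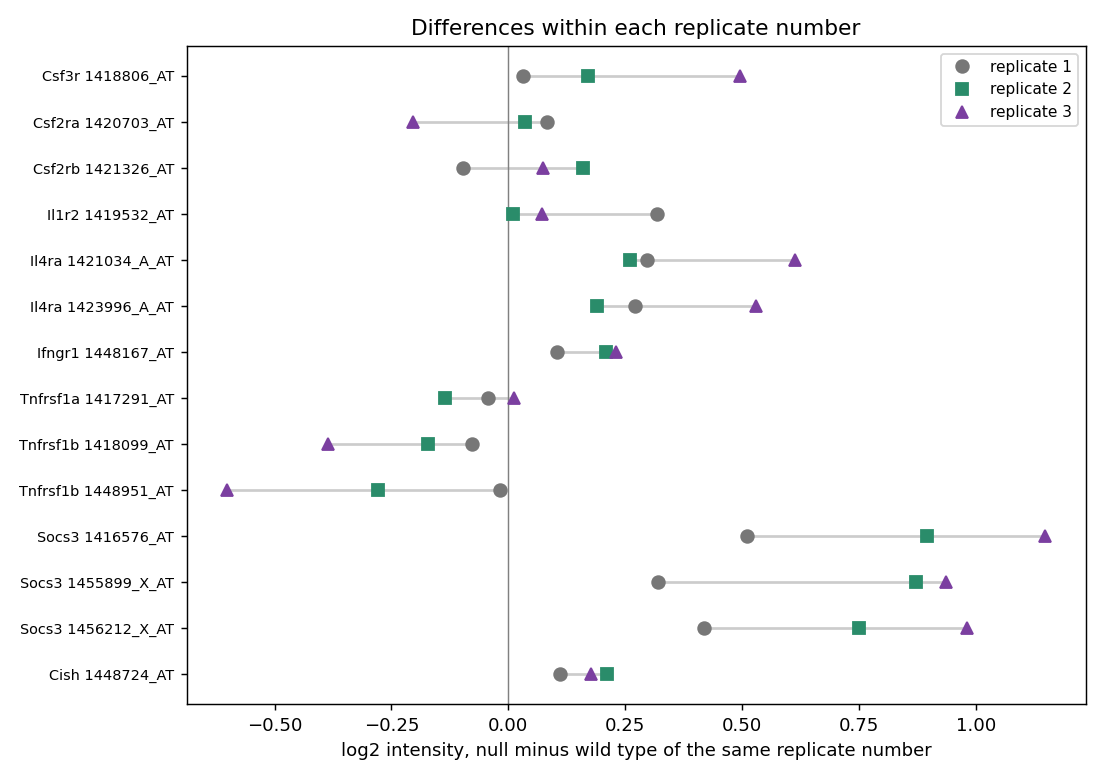
Null minus wild-type difference in log2 intensity (horizontal axis) within each replicate number for the 14 probe sets; the grey bar spans the 3 pairs. Differences lie above 0 in 3 of 3 pairs for 9 probe sets and below 0 in 3 of 3 pairs for both probe sets of Tnfrsf1b (21.6% and 25.0% of all probe sets tested), and the replicate 1 pair gives the smallest difference for each Socs3 and each Tnfrsf1b probe set.

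Socs3, the inhibitor that binds the phosphorylated G-CSF receptor and blocks its JAK kinases, gave the largest differences among the 10 genes. Its probe set 1416576_AT read 9.40, 9.44 and 9.67 on null 1, 2 and 3 and 8.89, 8.55 and 8.52 on wild-type 1, 2 and 3. The lowest null array lay 0.51 log2 units above the highest wild-type array. The means were 9.50 ± 0.14 (SD, n = 3) and 8.65 ± 0.21 (SD, n = 3), a 1.80-fold difference (log2 0.85, SE 0.14, 95% interval 1.45-fold to 2.25-fold). The limma adjusted p was 0.0756 unpaired, just short of the threshold, and with the block Socs3 rose at 0.00601. Only 0.588% of all probe sets tested differed by as much or more, in either direction.

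Both further Socs3 probe sets gave the same direction with more spread among wild-type arrays. Probe set 1455899_X_AT read 10.61, 10.36 and 10.65 on the null arrays and 10.29, 9.48 and 9.71 on the wild-type arrays. Probe set 1456212_X_AT read 10.28, 9.98 and 10.21 against 9.86, 9.23 and 9.22. Here null 2 was the lowest null array, and wild-type 1 stood 0.70 and 0.64 log2 units above the mean of wild-type 2 and 3, so that the genotypes came close without overlapping. The log2 differences were 0.71 (SE 0.20, 95% interval 0.24 to 1.18) and 0.72 (SE 0.19, 95% interval 0.28 to 1.15), with a limma adjusted p of 0.274 and 0.231 unpaired and of 0.0106 and 0.00696 with the block. The x in these identifiers marks probes that the manufacturer allows to match other sequences, and the probe sets of a gene can share probes, so the 3 are not independent measurements of Socs3.

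Within pairs, Socs3 differed least in replicate 1. The differences in pairs 1, 2 and 3 were 0.51, 0.90 and 1.15 log2 units for 1416576_AT, 0.32, 0.87 and 0.94 for 1455899_X_AT and 0.42, 0.75 and 0.98 for 1456212_X_AT. With the block, all 3 probe sets passed without any 1 of the pairs, with the highest limma adjusted p, 0.0487, for 1455899_X_AT without replicate 2. These fits have fewer arrays and keep the intensity trend of the variance. With all pairs but without that trend, none of the 3 passed (limma adjusted p = 0.0635, 0.0797 and 0.0694). Without both replicate 1 arrays and without a block the differences were 1.02, 0.90 and 0.87 log2 units and all 3 passed (limma adjusted p = 0.00354, 0.00989 and 0.00584). That setting was chosen after seeing the data and leaves out the pair with the smallest differences, so the larger differences follow from the choice. Averaged over its 3 probe sets, Socs3 read 10.07 ± 0.13 (SD, n = 3) in the absence of miR-223 and 9.31 ± 0.33 (SD, n = 3) in its presence.

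Cish, an inhibitor of the same SOCS family that STAT5 turns on, showed a small difference with little spread. Its probe set 1448724_AT read 7.78, 7.85 and 7.84 on the null arrays and 7.67, 7.63 and 7.67 on the wild-type arrays. The arrays of each genotype lay close together, with an SD of 0.036 (n = 3) in null and 0.021 (n = 3) in wild-type arrays, and the genotypes did not overlap. The log2 difference was 0.17 (SE 0.094, 95% interval -0.05 to 0.39, 1.12-fold), with null arrays higher by 0.11, 0.21 and 0.18 in the 3 pairs. It did not pass in either fit (limma adjusted p = 0.596, and 0.186 with the block). Limma draws each standard error towards that of probe sets of similar intensity. Here that error, which is of the difference, exceeds the SD of either genotype, a different measure. Without the trend on intensity Cish did not pass either (limma adjusted p = 0.532, and 0.211 with the block).

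**Figure D3:**
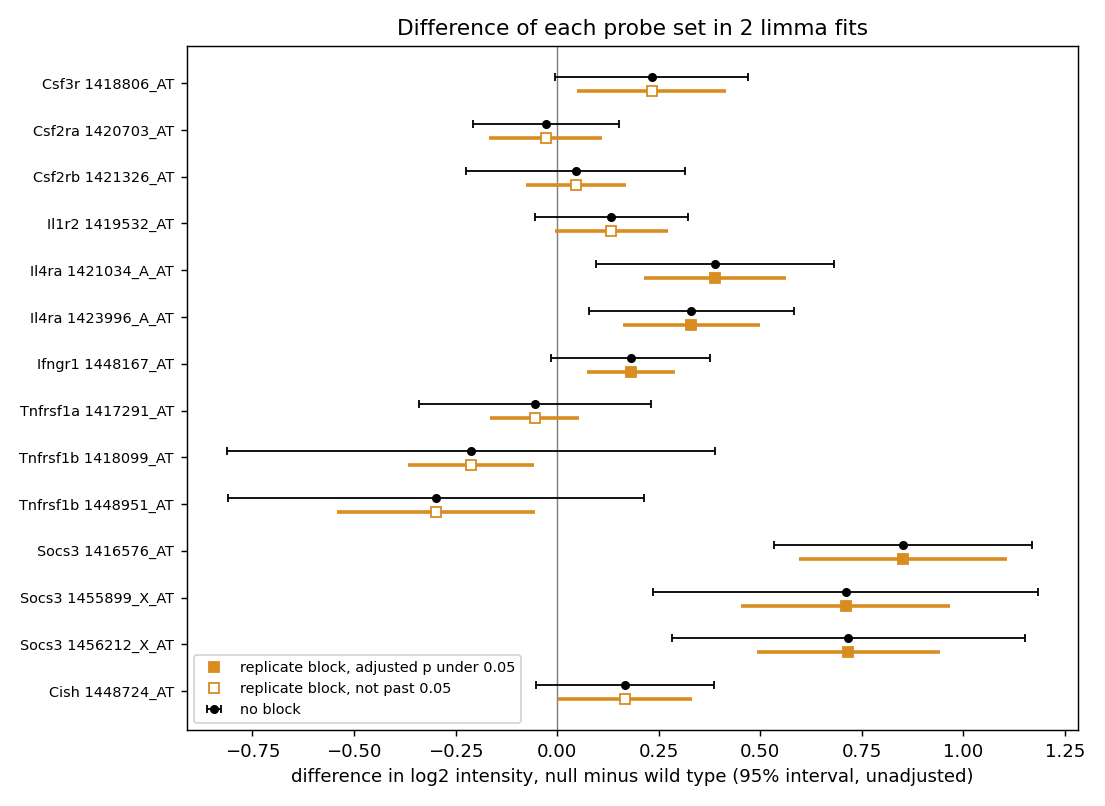
Null minus wild-type difference in log2 intensity (horizontal axis) of the 14 probe sets, with unadjusted 95% intervals from limma without a block (black) and with the replicate number as a block (orange, filled where the adjusted p was under 0.05). The difference is the same in both fits and the interval is narrower with the block, most of all for Tnfrsf1b 1418099_AT, and the filled squares are those of Socs3, Il4ra and Ifngr1.

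Across the 14 probe sets, 8 had every null array above every wild-type array (Il1r2, both of Il4ra, Ifngr1, the 3 of Socs3, and Cish), against 8.12% of all probe sets tested. In 0 of the 14 did every null array lie below every wild-type array, against 8.68% of all. The median difference of the 14 was 0.17 log2 units, against -0.01 over all probe sets tested, and the median size was 0.22 against 0.11. These probe sets are not independent, since 7 of them read only 3 genes. The shares and medians over all probe sets include dim ones, and no background of similar brightness to the 14 was computed.

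**Figure D4:**
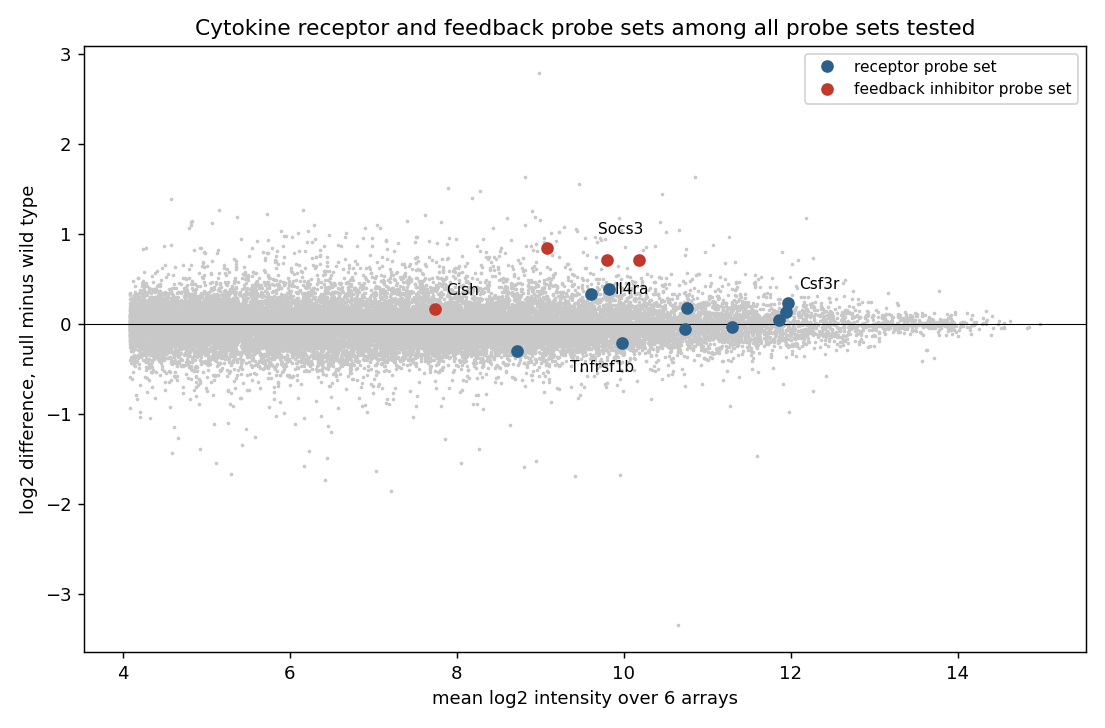
Null minus wild-type difference (vertical axis, log2) against mean log2 intensity over the 6 arrays for the 27022 probe sets tested (grey), with the 10 receptor probe sets in blue and the 4 feedback inhibitor probe sets in red. The Socs3 probe sets sit at 0.71 to 0.85, near the upper margin of the cloud at their intensity, and the other 11 lie between -0.30 and 0.39, within it.

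Upstream sequence is shown for the 2 feedback inhibitors because their known regulation runs through STAT proteins, which can bind DNA at TTCNNNGAA. Only this spacing was searched, so a window without it may still hold another STAT site. RefSeq promoter windows of 300 bases were found for 9 of the 10 genes, Csf2rb being the one without. The motif reads the same on both strands. It occurred in 5 of these 9 windows (Il1r2, Tnfrsf1a, Tnfrsf1b, Socs3 and Cish) and in 8.30% of the 32851 windows of the table, while the windows of Csf3r, Csf2ra, Il4ra and Ifngr1 held none. Genes with and without the motif were thus found among those that passed with the block and among those that did not. Cish had 2 matches that did not overlap, and 0.457% of all windows held 2 or more. Below, each stretch runs from 250 bases before the transcript start to 20 bases after it, with the matches in capitals. The Socs3 stretch lies at chr11:117969347-117969616 (GRCm38.p6, minus strand), with the match beginning 154 bases before the start, and the Cish stretch at chr9:107296409-107296678 (plus strand), with matches beginning at bases 1 and 12 of the transcript. The Socs3 start used by the table lies 970 bases inside the outermost annotated end of the gene, so its window lies within a longer gene model. The same holds for the windows of Csf3r (1218 bases inside) and Il1r2 (1401 bases inside), which count in the tally of 9. A match is a description of these letters and not evidence of binding.
Socs3: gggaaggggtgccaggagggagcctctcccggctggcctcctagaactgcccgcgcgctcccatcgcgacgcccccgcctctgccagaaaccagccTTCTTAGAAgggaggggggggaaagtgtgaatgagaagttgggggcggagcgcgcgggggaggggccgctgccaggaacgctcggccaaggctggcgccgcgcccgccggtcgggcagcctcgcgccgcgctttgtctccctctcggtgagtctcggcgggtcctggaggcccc
Cish: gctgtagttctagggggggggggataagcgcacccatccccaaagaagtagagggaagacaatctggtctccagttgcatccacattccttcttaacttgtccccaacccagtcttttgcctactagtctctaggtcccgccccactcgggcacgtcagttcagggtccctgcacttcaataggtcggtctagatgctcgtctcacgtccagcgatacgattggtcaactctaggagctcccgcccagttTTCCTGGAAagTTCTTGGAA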

How the data were processed

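The authors deposited log2 intensities of Affymetrix arrays, 1 value per probe set and array. The log2 scale was read from the values (array medians 4.71 to 4.72, highest values near 15.0). The submitters' processing notes name GCOS, while background correction, normalization and probe summary are not given in the sources used here. Values were used as deposited, so every difference is relative to the rest of an array. Probe sets of a gene were tested apart (an average over probe sets is given for Socs3 alone, without a test), and levels of different probe sets were not compared.

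After 64 manufacturer's controls were removed, probe sets with a mean at or above the 40th percentile (4.08) were tested with limma 3.58.1 (R 4.3.3; lmFit, eBayes with trend) and Benjamini-Hochberg adjustment, without a block and with the replicate number as a block. The code was tested on simulated data. Same-numbered arrays deviated together (r = 0.70, 0.30 and 0.48 for replicates 1, 2 and 3). Null 3 with wild-type 2 (0.41) and null 2 with wild-type 3 (0.21) did so too. These values set replicate 1 apart, but do not show that replicates 2 and 3 are paired by number. The labels do not say what the number stands for, so the block is an assumption. With 3 arrays per genotype, an exact two-sided permutation test cannot go below 0.1. Alternatives were other filters, quantile normalization, median centring, no trend and leaving out arrays.

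The members, the lists and the unblocked fit as the main one were chosen with earlier results of these data known. All 14 probe sets are named. Lists of further pathway genes and of cell type markers were not run, because no table used here pairs probe sets with symbols.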

Additional observations from a re-analysis of the deposited data

How the results depend on the processing

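Without a block, 0 of the 14 probe sets passed in limma under every filter, normalization and variance model run and without any 1 array (4 to 6 of the 14 at an unadjusted p under 0.05), while the count over all probe sets was 51, fell to 2 at an adjusted p under 0.01 and ranged from 0 to 58 when 1 array was left out. The replicate block gave 6 of the 14 and 2703 in all. With the block, the counts were 5 and 2455 with no filter, where 45037 probe sets were tested in place of 27022. They were 0 (7 at an unadjusted p under 0.05) and 191 without the trend. When a replicate pair was left out, they were 3 to 7 and 606 to 2319 (2045 without replicate 1, 606 without replicate 2). Settings chosen after seeing the data gave, with the block, 5 and 2566 after quantile normalization, 5 and 2546 after median centring, and 6 and 3052 with the filter at the 60th percentile (18015 tested). Without both replicate 1 arrays and without a block they gave 4 and 1072. Il1r2, Ifngr1, Cish, Csf3r, Il4ra, Socs3 and Tnfrsf1b 1448951_AT kept their sign under all settings run. The others were not called in any setting and changed sign when an array or pair was left out, with ranges over single arrays of -0.057 to 0.020 log2 units for Csf2ra, -0.017 to 0.17 for Csf2rb, -0.15 to 0.038 for Tnfrsf1a and -0.47 to 0.0032 for Tnfrsf1b 1418099_AT. With the block, Csf2ra stood at 0.060 without replicate 3 and Csf2rb at -0.011 without replicate 2. The cause of these changes was not tested. The number of arrays, 3 per genotype, limits the precision, and the lists of pathway and marker genes were not run.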
